A study of Sus scrofa with 4 samples.

Results

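Commitment of a cell to divide is decided in the G1 phase of the cell cycle. D-type cyclins bind the kinases CDK4 and CDK6, and the active complexes phosphorylate RB1, the retinoblastoma protein, which otherwise holds E2F transcription factors in check and keeps S-phase genes low. The CIP/KIP proteins CDKN1A, CDKN1B and CDKN1C inhibit cyclin-CDK complexes, and the INK4 protein CDKN2C inhibits CDK4 and CDK6 in particular. In the testis of mice, D cyclins are known for their stage-specific use in spermatogonia, and CDKN1B for restraining the division of Sertoli cells.

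The 10 genes CCND1, CCND2, CCND3, CDK4, CDK6, CDKN1A, CDKN1B, CDKN1C, CDKN2C and RB1 were taken by gene symbol from tables of 26921 genes or loci. All 10 were present and all 10 passed the filters on low values, with between 90 and 3714 counts per library. They were measured by RNA sequencing in cultured cells that the labels call immature spermatogonia of the pig, taken from testis, in 2 libraries with knockdown of ZBTB16 and 2 control libraries. ZBTB16 is a BTB zinc finger repressor that marks undifferentiated spermatogonia. The control libraries are labelled WT, and the labels do not say if they received a vector. The plan of the study names a short hairpin RNA delivered by lentivirus, so an effect of the virus and an effect of the knockdown cannot be told apart. The labels used here do not state age, breed or the number of animals.

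The knockdown libraries held 18500447 and 16548342 expected counts and the control libraries 17283536 and 15983390. ZBTB16 stood at 1.37 and 1.34 FPKM in the knockdown libraries, against 1.77 and 1.76 FPKM in the control libraries, and fell by 0.36 on the log2 scale (SE 0.109, adjusted p = 0.00338, edgeR). It did not pass on log2(FPKM + 1) (log2 -0.23, adjusted p = 0.0685, limma) or on log2(TPM + 1) (log2 -0.11, adjusted p = 0.332, limma). FPKM is the number of fragments scaled by transcript length and library size. Markers of germ cells and of somatic cells of the testis were both present. The 9 markers of undifferentiated spermatogonia in the tables summed to 148 and 140 FPKM in knockdown and 178 and 173 FPKM in control libraries, and of 7 tested 1 rose and 2 fell. Most of that sum was UCHL1, a ubiquitin hydrolase, at 89.05 and 85.25 FPKM in knockdown and 121.72 and 120.41 FPKM in control libraries. In the same list GFRA1, SALL4, LIN28A and NANOS2 were below 1 FPKM in every library. ETV5, THY1 and ID4 lay between 7.5 and 29.94 FPKM. The germ cell helicase DDX4 was at 2.01 and 1.86 FPKM in knockdown and 2.3 and 1.96 FPKM in control libraries. The smooth muscle actin ACTA2 of peritubular cells was at 3508 and 3440 FPKM in knockdown and 3209 and 3198 FPKM in control libraries, and CLDN11, a junction protein of Sertoli cells, at 691 and 721 FPKM in knockdown and 587 and 571 FPKM in control libraries. The summed level of 10 Sertoli cell markers was 1030 and 1050 FPKM in knockdown and 888 and 876 FPKM in control libraries, and of those tested 5 rose and 3 fell. The summed level of 9 peritubular and fibroblast markers was 6810 and 6710 FPKM in knockdown and 7090 and 7000 FPKM in control libraries. Of the 9 tested 4 rose and 4 fell. The 9 germ line markers summed to 28.6 and 27.4 FPKM in knockdown and 29.4 and 30.5 FPKM in control libraries. Of the 8 tested 4 rose and 1 fell, and the meiotic entry gene STRA8 was below 0.1 FPKM in every library. These marker calls were by counts (edgeR, adjusted p under 0.05), by which 22.7% of all tested genes rose and 23.8% fell. FPKM summed over all genes was itself lower, at 634962 and 632881 in knockdown libraries and 739808 and 742383 in control libraries. A sum of marker FPKM is therefore not a share of its library, and shares were not compared. The part of these cell types in the levels below was not tested. In bulk RNA, fewer cells of a type and less RNA per cell cannot be told apart.

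By counts, 5 of the 10 genes passed the test at an adjusted p under 0.05. RB1, CDK6 and CCND2 rose in the knockdown, and CCND1 and CDKN1A fell. CCND3, CDK4, CDKN1B, CDKN1C and CDKN2C did not pass. Among all 15763 genes tested 46.4% passed, 22.7% higher and 23.8% lower in the knockdown, so a count of 5 in 10 is near the background. The changes were small. The fitted ratios of the 5 genes that passed, knockdown over control, lay between 0.841 for CCND1 and 1.28 for RB1, and the median size among all called genes was 1.24-fold. The median log2 change of the 10 genes was -0.05, beside 0.00 for all tested genes. With 2 libraries a group the smallest two-sided p of an exact permutation test is 0.333, and each p given here rests on a spread pooled over all genes (edgeR quasi-likelihood test, Benjamini-Hochberg adjustment over all tested genes). These p-values set the difference between groups only against the spread between the 2 libraries of each group, which may be technical.

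**Figure D1:**
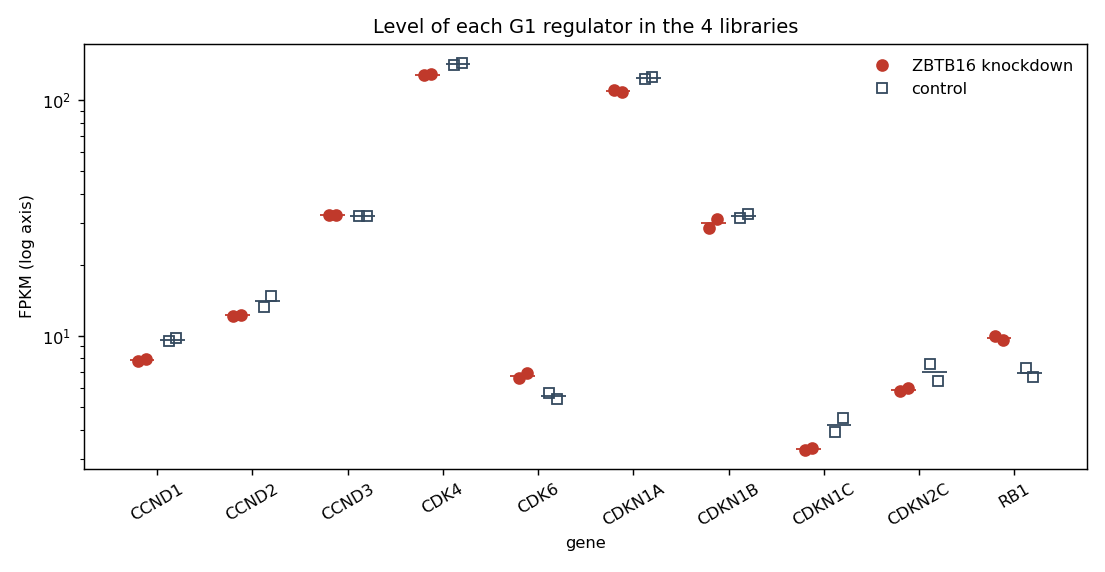
FPKM of each gene (log axis) in the 2 ZBTB16 knockdown libraries (filled circles) and the 2 control libraries (open squares), with a line at each group mean. CDK4 and CDKN1A stood above 100 FPKM in all 4 libraries, and RB1 and CDK6 were the genes whose knockdown libraries were visibly above the controls.

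In both groups the kinase CDK4 and the inhibitor CDKN1A were the most abundant of the 10 per unit length. The order of mean FPKM in the knockdown libraries was CDK4 (127), CDKN1A (109), CCND3 (32.4), CDKN1B (29.9), CCND2 (12.2), RB1 (9.76), CCND1 (7.88), CDK6 (6.76), CDKN2C (5.9) and CDKN1C (3.32). In the control libraries it was CDK4 (142), CDKN1A (123), CDKN1B and CCND3 (32.2 each), CCND2 (14.0), CCND1 (9.62), CDKN2C (7.01), RB1 (6.97), CDK6 (5.54) and CDKN1C (4.2). The libraries of neighbours in this order overlapped for CDKN1B with CCND3 and for CDKN2C with RB1 in the control, and for no pair of neighbours in the knockdown. RB1 stood in eighth place in the control, below CCND1 and level with CDKN2C, and in sixth place in the knockdown, above both.

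RB1 had the largest fold change of the 10 by counts, while CDK6 had the smaller adjusted p. It lies on chromosome 11 (19186754 to 19317642, minus strand, Sscrofa11.1) and is protein-coding. It had 663 and 592 counts in the knockdown libraries and 491 and 448 in the control libraries. As FPKM it was 9.96 and 9.56 in the knockdown and 7.27 and 6.67 in the control, so the groups did not overlap. It rose 1.28-fold by counts (log2 0.36, SE 0.0655, adjusted p = 7.87e-07, edgeR). With limma on log2(FPKM + 1) the log2 change was 0.43 (adjusted p = 0.00461). RB1 was higher and past the threshold in all 14 alternative settings, with log2 changes of 0.31 to 0.66 and adjusted p-values of 3.3e-08 to 0.00461. LPAR6, a receptor gene, lies inside RB1 on the opposite strand, and the sources used here do not say if strand was used in counting. LPAR6 was at 4.17 and 3.91 FPKM in knockdown and 4.04 and 3.74 FPKM in control libraries (log2 0.09, adjusted p = 0.416, edgeR). The part of LPAR6 in the RB1 counts was not tested.

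The 200 bases before the annotated 5′ end of 2 genes follow, in the direction of transcription, from the RefSeq assembly Sscrofa11.1, because these were the genes that were higher in every setting and passed by counts and by FPKM. Capitals mark matches on either strand to the E2F-type motif TTTNNCGC and to TGACG, the core of a cyclic AMP response element. RB1 is at chr11:19317643-19317842 and CDK6 at chr9:72765632-72765831, both on the minus strand.
RB1: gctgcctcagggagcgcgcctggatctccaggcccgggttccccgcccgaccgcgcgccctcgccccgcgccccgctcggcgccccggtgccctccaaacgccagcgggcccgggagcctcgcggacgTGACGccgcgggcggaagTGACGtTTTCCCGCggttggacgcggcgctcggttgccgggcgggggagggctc
CDK6: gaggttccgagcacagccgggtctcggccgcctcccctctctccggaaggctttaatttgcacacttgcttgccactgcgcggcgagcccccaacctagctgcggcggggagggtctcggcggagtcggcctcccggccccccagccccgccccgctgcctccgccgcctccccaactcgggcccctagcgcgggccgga
The RB1 window holds TGACG starting 72 and 54 bases before the annotated start and the E2F-type motif starting 48 bases before it, none of them overlapping. Of 19557 such windows, of all protein-coding genes on the chromosomes and of CDK6, 4.93% hold the E2F-type motif and 17.0% hold TGACG. Among the 10 genes the E2F-type motif was present in 1, RB1, and TGACG in 3, CCND2, CDKN1B and RB1. The GC box GGGCGG was present in 8 of the 10 windows, against 43.8% of all windows. A match is a description of the letters in this window and was not tested for binding.

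By counts CDK6 rose and CDK4 did not pass, and the difference between the kinases was not tested. CDK4 and CDK6 are the catalytic partners of the D cyclins. CDK6 (chromosome 9, 72510858 to 72765631, minus strand) had 1417 and 1330 counts in knockdown libraries and 1136 and 992 in control libraries. Its FPKM was 6.59 and 6.93 in knockdown and 5.69 and 5.38 in control libraries, without overlap. It rose 1.24-fold by counts (log2 0.31, SE 0.0462, adjusted p = 2.01e-09, edgeR) and was higher by FPKM (log2 0.25, adjusted p = 0.024, limma on log2(FPKM + 1)). Over the alternatives its adjusted p lay between 1.9e-12 and 0.061. The annotation of this assembly types pig CDK6 as a long non-coding RNA with 4 transcripts of 11858 to 12746 bases, so the measurement covers this locus and says nothing about a protein. CDK4 (chromosome 5, 23039206 to 23041959, minus strand) had 2301 and 2076 counts in knockdown and 2260 and 2118 in control libraries. By counts it did not pass (log2 -0.06, 95% interval -0.13 to 0.01, adjusted p = 0.184, edgeR). By FPKM it was 127 ± 0.898 in knockdown and 142 ± 1.33 in control libraries (SD, n = 2 each; log2 -0.15, adjusted p = 0.0077, limma on log2(FPKM + 1)). Over the alternatives the adjusted p of CDK4 lay between 0.00383 and 0.507 and its log2 change between -0.15 and 0.12. Within each library the ratio of 2 FPKM values does not depend on the library scaling. CDK4 exceeded CDK6 by 19.2 and 18.5 times in knockdown libraries and by 24.7 and 26.5 times in control libraries. CDK6 made up 4.94% and 5.14% of the summed FPKM of both kinases in knockdown and 3.88% and 3.63% in control libraries. The kinases lie in length classes whose median log2 changes over all genes were 0.20 for CDK6 and -0.22 for CDK4. With the length trend removed the log2 changes were 0.10 for CDK6 (adjusted p = 0.061) and 0.12 for CDK4 (adjusted p = 0.00383, edgeR), so the contrast between them was lost in that fit.

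Of the D cyclins, the regulatory subunits of these kinases, CCND1 fell, CCND2 rose by counts only and CCND3 did not pass by counts. CCND1 (chromosome 2, 3621242 to 3633380, minus strand) had 580 and 528 counts in knockdown and 651 and 615 in control libraries. Its FPKM was 7.81 and 7.95 in knockdown and 9.52 and 9.73 in control libraries. It fell to 0.841 times its control level by counts (log2 -0.25, SE 0.0629, adjusted p = 3.89e-04, edgeR), and by FPKM the log2 change was -0.26 (adjusted p = 0.0106, limma on log2(FPKM + 1)). It was lower in all 14 alternatives and past the threshold in 12, with adjusted p-values of 1.62e-05 to 0.35. With DESeq2 the adjusted p was 0.0502, and that tool called 3 of the 10 genes, beside 28.2% of all genes (13.8% higher and 14.4% lower). CCND3 (chromosome 7, 37087336 to 37182462, minus strand) is the most abundant D cyclin here, with 32.56 and 32.32 FPKM in knockdown and 32.22 and 32.12 FPKM in control libraries. It did not pass by counts (log2 -0.01, 95% interval -0.13 to 0.12, adjusted p = 0.932, edgeR). Its 5′ end overlaps TAF8, a subunit of TFIID on the other strand, which fell (log2 -0.29, adjusted p = 1.23e-04, edgeR). CCND3 supplied 62.0% and 61.6% of the summed D cyclin FPKM in knockdown and 58.6% and 56.7% in control libraries, while CCND1 supplied 14.9% and 15.1% in knockdown and 17.3% and 17.2% in control libraries. The summed D cyclin level was 52.5 FPKM in each knockdown library and 55.0 and 56.6 FPKM in the control libraries. FPKM summed over all genes was also lower in the knockdown libraries. By TPM, which is scaled to the same sum in each library, the log2 changes were -0.06 for CCND1, 0.02 for CCND2 and 0.23 for CCND3. The direction of the summed D cyclin level therefore depended on the unit.

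For CCND2 the direction depended on the unit. CCND2 (chromosome 5, 66092483 to 66114575, minus strand) had 952 and 840 counts in knockdown and 784 and 753 in control libraries, and rose by counts (log2 0.16, SE 0.0538, adjusted p = 0.00735, edgeR). Its FPKM was 12.11 and 12.24 in knockdown and 13.28 and 14.77 in control libraries, so it was lower in both knockdown libraries (log2 -0.19, adjusted p = 0.0589, limma on log2(FPKM + 1)). The deposited mean transcript length of CCND2 was 4514 and 4412 bases in knockdown and 3740 and 3514 bases in control libraries. This mean is weighted by the abundance of its transcripts, which in the tables are 1 annotated transcript, of 1222 bases spliced, and 2 unannotated ones. The effective length, the mean length less the fragment length, was 1.27 times as long in the knockdown, and FPKM is the count divided by it. With the effective length as an offset in the count test CCND2 was lower (log2 -0.15, adjusted p = 0.0345, edgeR). In that fit 6 of the 10 were called, 2 higher and 4 lower, beside 46.4% of all genes (22.5% higher and 23.9% lower). Over the alternatives its log2 change lay between -0.19 and 0.19 with adjusted p-values of 0.00298 to 0.785. Without control replicate 1 its adjusted p by counts was 0.123 and without ZBTB16 knockdown replicate 1 it was 0.0687. The antisense RNA LOC106507534, which overlaps CCND2 on the other strand, had 28 and 30 counts in knockdown and 31 and 27 in control libraries.

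The FPKM change of a gene is, by construction, its change in share of counts less its change in effective length. For 8 of the 10 genes the effective length changed by at most 0.08 on the log2 scale. The exceptions were CCND2 (0.35) and RB1 (-0.14). For RB1 the mean transcript length was 3863 and 4009 bases in knockdown and 4233 and 4527 bases in control libraries, so its FPKM change (log2 0.49, with no pseudocount) exceeded its change in share of counts (log2 0.34). The tables list 4 transcripts of RB1, 2 annotated ones of 3030 and 4734 bases and 2 unannotated ones whose lengths were not used here.

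**Figure D2:**
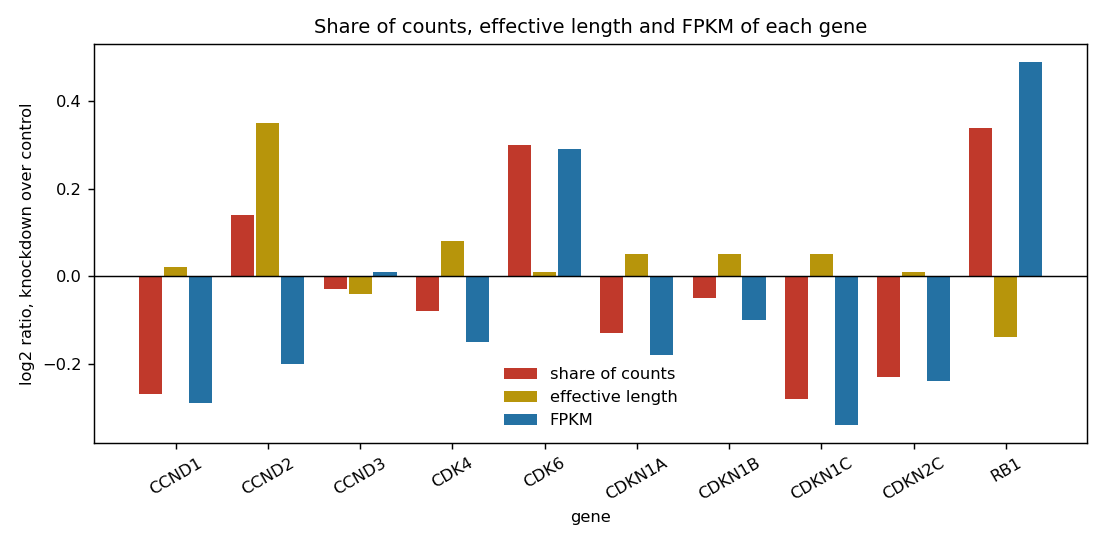
Log2 ratio of ZBTB16 knockdown over control for each gene's share of counts, effective length and FPKM (bars from 0, means of log2 values of 2 libraries per group). CCND2 has a longer effective length in the knockdown, which turns a positive change in counts into a negative change in FPKM, and RB1 a shorter one.

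The CIP/KIP inhibitors were lower or did not pass. CDKN1A, the p53-responsive inhibitor p21 (chromosome 7, 32354776 to 32363771, plus strand), had 3690 and 3240 counts in knockdown and 3714 and 3495 in control libraries. Its FPKM was 109.75 and 108.15 in knockdown and 122.41 and 124.51 in control libraries, without overlap. It fell to 0.924 times its control level by counts (log2 -0.11, SE 0.0294, adjusted p = 4.98e-04, edgeR) and had a log2 change of -0.18 by FPKM (adjusted p = 0.00563, limma on log2(FPKM + 1)). Over the alternatives its log2 change lay between -0.18 and 0.04, with adjusted p-values of 1.61e-04 to 0.821. CDKN1B, the inhibitor p27 (chromosome 5, 59731224 to 59735831, minus strand), was at 28.68 and 31.22 FPKM in knockdown and 31.46 and 32.89 FPKM in control libraries. It did not pass by counts (log2 -0.04, 95% interval -0.14 to 0.07, adjusted p = 0.62, edgeR) and in none of the 14 alternatives (adjusted p = 0.127 to 0.965). CDKN1C, the imprinted inhibitor p57 (chromosome 2, 2019391 to 2022092, minus strand), was the least abundant of the 10, with 99 and 90 counts in knockdown and 106 and 112 in control libraries. Its FPKM was 3.29 and 3.35 in knockdown and 3.92 and 4.48 in control libraries. It did not pass by counts (log2 -0.26, 95% interval -0.56 to 0.04, adjusted p = 0.151, edgeR), and an interval of this width reflects the low counts. By FPKM its adjusted p was 0.0447 (limma on log2(FPKM + 1)), and over the alternatives 0.0447 to 0.551. The ratio of summed CIP/KIP FPKM to that of CDK4 and CDK6 was 1.06 in each knockdown library and 1.08 and 1.09 in the control libraries.

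CDKN2C, the INK4 inhibitor p18 (chromosome 6, 161160290 to 161166681, minus strand), had 236 and 221 counts in knockdown and 286 and 226 in control libraries. Its FPKM was 5.83 and 5.97 in knockdown and 7.57 and 6.45 in control libraries, the spread within the control being the wider. By counts it did not pass (log2 -0.22, 95% interval -0.41 to -0.03, adjusted p = 0.0559, edgeR). Without control replicate 2 it passed as lower (log2 -0.33, adjusted p = 0.0163), and without control replicate 1 the log2 change was -0.10 (adjusted p = 0.569). Over the alternatives the adjusted p lay between 0.0163 and 0.885.

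Tested on log2(FPKM + 1), 6 of the 10 genes passed (limma, adjusted over all genes), beside 45.3% of 13072 genes (15.6% higher and 29.7% lower). RB1 and CDK6 were higher in the knockdown, and CCND1, CDK4, CDKN1A and CDKN1C lower. The counts with 1 library left out are given below, beside the shares of all genes. All 10 genes had FPKM values that did not overlap between the groups, as had 76.1% of all genes in that test, and 8 of 10 did not overlap in normalised counts, as had 70.5% of the genes tested by counts. The sum of FPKM over all genes was 634962 and 632881 in knockdown libraries and 739808 and 742383 in control libraries. The tables also hold TPM, which is scaled to the same sum in each library. By TPM the median log2 change over all genes was 0.14, against -0.05 by FPKM. On that scale RB1 (0.66), CDK6 (0.46) and CCND3 (0.23) were higher past the threshold (adjusted p = 0.0014, 0.0036 and 0.00389, limma on log2(TPM + 1)), and CCND1 (-0.06) and CDKN1A (0.04) were not past it. By TPM 3 of the 10 were thus called, beside 53.2% of genes (39.5% higher and 13.7% lower). Over all genes 2038 were called higher and 3887 lower by FPKM, and 5446 higher and 1893 lower by TPM. The fall of CDKN1A therefore held by counts and by FPKM, and neither by TPM nor with the length trend removed.

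**Figure D3:**
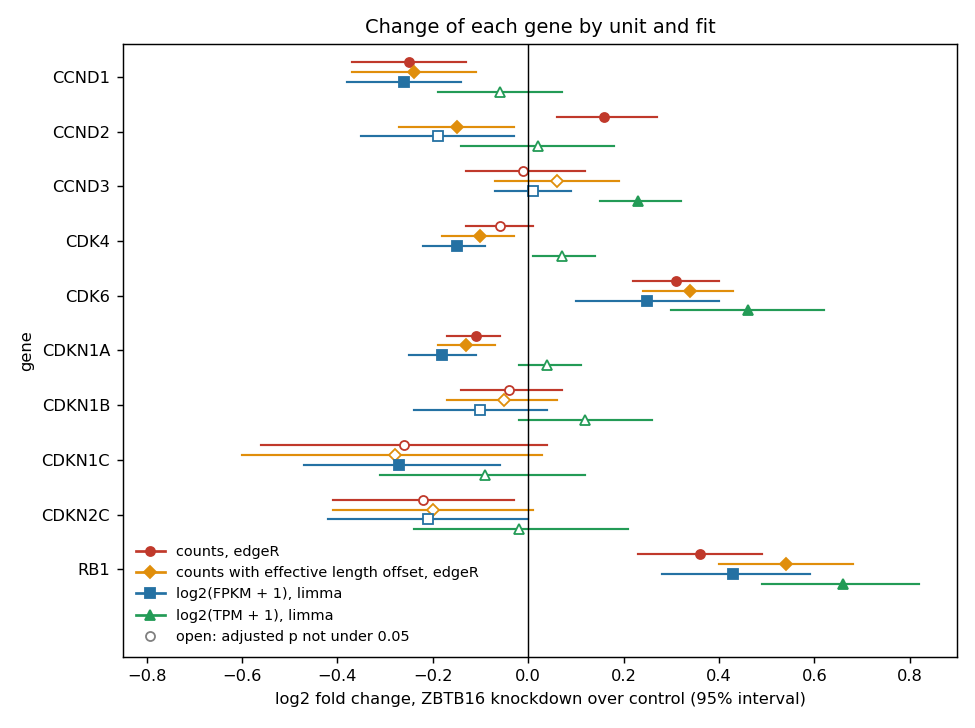
Log2 fold change of each gene, ZBTB16 knockdown over control, with its 95% interval, by counts (edgeR), by counts with the effective length as an offset (edgeR), by log2(FPKM + 1) and by log2(TPM + 1) (limma). Filled symbols passed an adjusted p of 0.05. RB1 and CDK6 are filled and above 0 in all 4 fits, and CCND2 lies on both sides of 0.

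Fragments averaged 266.4 and 267.3 bases in knockdown libraries, against 325.7 and 326.7 bases in control libraries. Across all genes the log2 change was greater for longer transcripts. The members span this range, from CDK4 (1250 bases) and CCND3 (1379 bases) to CDK6 (11875 bases). All tested genes were put into 20 classes of equal size by length. In the class of CDK6 the median log2 change was 0.20, and 70.2% of its genes lay below CDK6. In the class that holds RB1, CCND1 and CCND2 the median was 0.06, with 89.4% of genes below RB1 and 11.9% below CCND1. For CDKN1A the class median was -0.11, the same as its own change. For CDK4 and CCND3 it was -0.22, below both. With a smooth trend of length removed, RB1 (log2 0.31, adjusted p = 1.56e-05) and CCND1 (-0.30, adjusted p = 1.62e-05) stayed past the threshold in the same direction, while CDK6 (0.10, adjusted p = 0.061), CCND2 (0.12, adjusted p = 0.0599) and CDKN1A (-0.01, adjusted p = 0.821) did not pass. CDK4 (0.12, adjusted p = 0.00383) and CCND3 (0.16, adjusted p = 0.0278) then passed as higher (edgeR). In that fit 4 of the 10 were called, beside 40.9% of all genes (19.3% higher and 21.6% lower). Since both knockdown libraries had the shorter fragments, fragment length and group cannot be told apart.

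**Figure D4:**
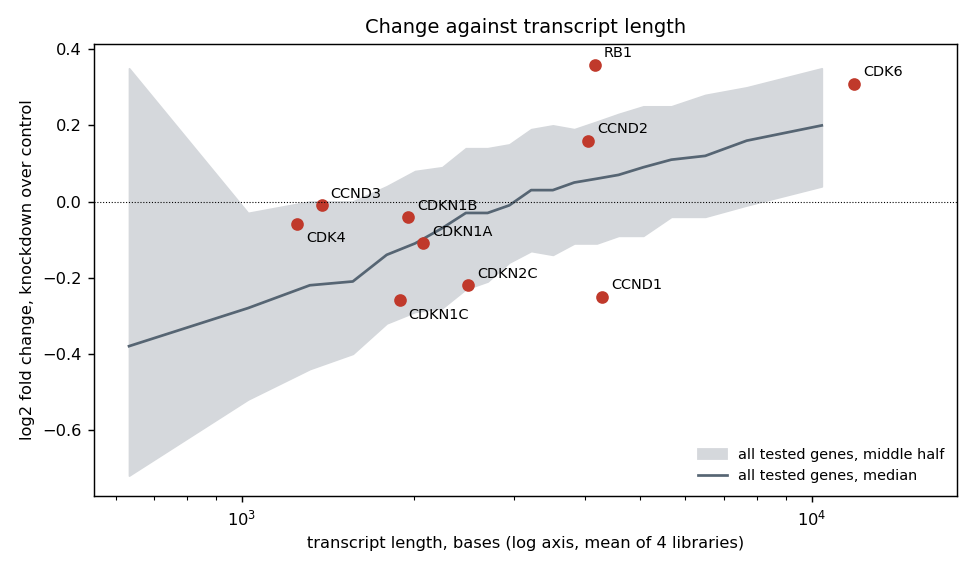
Log2 fold change by counts (edgeR), ZBTB16 knockdown over control, against transcript length (log axis). The line and band are the median and the quartiles of all tested genes in 20 length classes, and points are the 10 genes. RB1 lies above the band and CCND1 below it, while CDKN1A lies on the line.

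Around these genes 8 lists of their partners were counted, 107 tested genes in all, of which 35 rose, 33 fell and 39 did not pass by counts (22.7% and 23.8% of all genes). Among 16 RB relatives, E2F and DP factors and MuvB subunits 9 rose, 2 fell and 5 did not pass, with a median log2 change of 0.18, beside 0.00 for all tested genes. RBL1, the pocket protein p107, was at 9.45 ± 0.346 FPKM in knockdown and 7.28 ± 0.156 FPKM in control libraries (SD, n = 2 each; log2 0.38, adjusted p = 1.19e-08). E2F5 was at 11.6 ± 0.269 in knockdown and 8.33 ± 0.834 FPKM in control libraries (log2 0.49, adjusted p = 3.09e-06). E2F4 and E2F3 rose by log2 changes of 0.35 and 0.29 (adjusted p = 2.44e-08 and 4.14e-06). E2F4 and E2F5 are known as E2Fs of quiescent cells that bind the pocket proteins RBL1 and RBL2. With the length trend removed 6 of the list rose and 1 fell (median 0.10), by FPKM 5 were called higher and 3 lower, and with DESeq2 4 passed, all higher.

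Among 20 E2F target genes of S phase 6 rose, 4 fell and 10 did not pass, with a median of 0.02. The replicative helicase subunits moved apart: MCM4 rose (31.5 ± 0.686 FPKM in knockdown and 26.4 ± 0.269 in control libraries, log2 0.30, adjusted p = 4.26e-10) and MCM7 fell (68.1 ± 0.735 FPKM in knockdown and 83.9 ± 0.198 in control libraries, log2 -0.26, adjusted p = 1.32e-13). MYBL2, a transcription factor of the G2 genes, rose (log2 0.27, adjusted p = 1.31e-11), and the thymidine kinase TK1 fell (log2 -0.44, adjusted p = 1.68e-07). Among 12 genes of cyclins E and A, CDK2 and their regulators 3 rose, 4 fell and 5 did not pass (median -0.01). CCNA2, cyclin A2, rose (log2 0.39, adjusted p = 1.56e-07), as did CCNH, the cyclin of the CDK-activating kinase (log2 0.25, adjusted p = 1.35e-05). CKS1B and CKS2, small proteins that bind CDKs, fell (log2 -0.58 and -0.57, adjusted p = 1.84e-15 and 4.01e-19). CKS2 was at 99.9 ± 1.03 FPKM in knockdown and 176 ± 10.2 FPKM in control libraries. Both lie in the class of the shortest transcripts, whose median log2 change over all genes was -0.38. The effective length of CKS2 was 406 and 405 bases in knockdown and 346 and 345 bases in control libraries. Its change on log2(FPKM + 1) was therefore larger (log2 -0.81) than by counts.

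Of the 4 other inhibitors tested 2 fell and 2 did not pass (median -0.31). With the effective length as an offset 1 fell and the median was -0.04, and the median was -0.07 by FPKM and 0.12 by TPM. HEXIM1, an inhibitor of the elongation kinase P-TEFb, was at 32.49 and 32.93 FPKM in knockdown and 49.75 and 50.17 FPKM in control libraries (log2 -0.56, adjusted p = 1.76e-30). The INK4 gene CDKN2B fell by counts (log2 -0.43, adjusted p = 0.00209). It stood at 1.91 ± 0.0849 FPKM in knockdown and 1.67 ± 0.304 FPKM in control libraries, and these groups overlapped. By FPKM it did not pass (log2 0.13, adjusted p = 0.384, limma on log2(FPKM + 1)), so its fall was seen by counts and not by FPKM. CDKN2D, the INK4 inhibitor p19, had a log2 change of -0.19 (adjusted p = 0.438) and the phosphatase CDKN3 0.21 (adjusted p = 0.128). By FPKM CDKN2D passed as lower (log2 -0.23, adjusted p = 0.0285, limma on log2(FPKM + 1)). CDKN2A was not analysed here.

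Of 18 genes of the p53 arm around CDKN1A 5 rose, 7 fell and 6 did not pass (median 0.00). The apoptosis effector BAX was at 37.3 ± 0.523 FPKM in knockdown and 88.8 ± 3.72 FPKM in control libraries (log2 -1.09, adjusted p = 4.79e-34). The stress genes GADD45A and GADD45B fell (log2 -0.42 and -0.47, adjusted p = 1.93e-09 and 4.16e-12), as did the repair gene XPC (log2 -0.28, adjusted p = 8.57e-07). These 4 genes were named for having the smallest p in the list, and the list as a whole went both ways. By FPKM 1 of the list was called higher and 8 lower, and by TPM 8 higher and 5 lower.

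Of 15 ubiquitin ligase subunits and chaperones that set the level of D cyclins and inhibitors 4 rose, 7 fell and 4 did not pass (median -0.05). The cullin CUL4B and the kinase GSK3B, known to phosphorylate D cyclins ahead of their breakdown, rose (log2 0.33 each, adjusted p = 1.19e-23 and 9.76e-21). The SCF ligase subunit SKP1 and CDC37, a cochaperone that loads CDK4 and other kinases onto HSP90, fell (log2 -0.24 and -0.36, adjusted p = 1.95e-12 and 1.13e-18). Of 15 FOXO, MYC and SMAD regulators 8 rose, 5 fell and 2 did not pass (median 0.18, and 0.05 with the length trend removed). SMAD4 and SP3 rose (log2 0.24 and 0.21), and FOXO4 and MXD4 fell (log2 -0.44 and -0.24; adjusted p = 8.33e-11, 5.78e-08, 2.62e-07 and 2.55e-07). Of 7 tested genes of the imprinted region beside CDKN1C 2 fell and 5 did not pass (median -0.17, and 0.02 with the length trend removed). TSSC4 and CD81 fell (log2 -0.63 and -0.17, adjusted p = 5.64e-07 and 7.68e-09). CD81 lies in a length class whose median log2 change over all genes was -0.28. By counts neither PHLDA2 (log2 -0.19, adjusted p = 0.0577) nor IGF2 (log2 0.28, adjusted p = 0.137) passed. On log2(FPKM + 1) PHLDA2 passed as lower (log2 -0.38, adjusted p = 0.00218, limma) and IGF2 as higher (log2 0.49, adjusted p = 0.0332, limma). The mean transcript length of IGF2 was 3018 and 2417 bases in knockdown and 3661 and 3767 bases in control libraries. Of 6 genes of this list tested by FPKM 1 was called higher and 4 lower. The p-values of these lists come from edgeR's quasi-likelihood test unless another test is named.

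**Figure D5:**
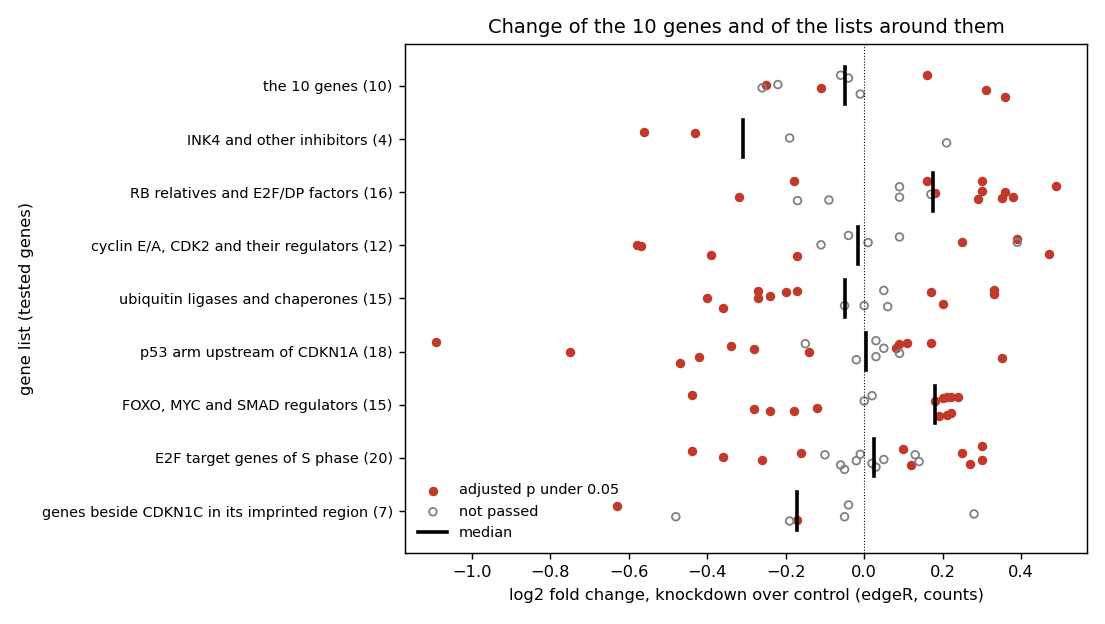
Log2 fold change by counts (edgeR), ZBTB16 knockdown over control, of the 10 genes and of the tested genes of 8 lists, with filled points for an adjusted p under 0.05 and a bar at each median. The medians run from -0.31 for the other inhibitors to 0.18 for the RB relatives and E2F/DP factors and for the FOXO, MYC and SMAD regulators, and most lists have filled points on both sides of 0.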

How the data were processed

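RNA was sequenced in 2 libraries of cells with ZBTB16 knockdown and 2 control libraries, numbered in their titles, from 2 independent experiments per the labels. Per the labels' protocols, the authors filtered reads with SOAPnuke 2.1.0, aligned them with HISAT2 2.2.1 to Sscrofa 11.1, mapped them to transcripts with bowtie2 2.3.5 and quantified them with RSEM 1.3.3, whose estimates can split a read between transcripts. The deposited tables give expected counts, FPKM and TPM per gene, with a transcript length and an effective length in bases. The authors' FPKM was made with RSEM per the labels' protocols, and every deposited FPKM (100.0%) could be rebuilt from the count, the effective length and the total count. TPM is, per the file headers, the authors' second scaled unit and was used as an alternative.

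Expected counts were rounded and tested with edgeR 4.0.16 in R 4.3.3 (TMM, filterByExpr with a minimum count of 10 and a minimum total of 15, two-sided quasi-likelihood test). FPKM was tested with limma 3.58.1 (trend) on log2(FPKM + 1) for genes of at least 1 FPKM in at least 2 libraries, and this scale understates changes of low genes. Both were fitted to all genes, adjusted by Benjamini-Hochberg and called at 0.05. Log2 changes are knockdown over control. Both fits were first tested on simulated counts with known changes. There edgeR found nearly all of the larger changes in well-counted genes but missed many of the smallest, and limma on FPKM missed more. Of the 10 genes only RB1 changed by more than the smallest simulated size by counts. The simulation changed far fewer genes than were called in the data and gave both groups the same effective lengths. Its rates therefore do not carry over, and a gene that did not pass is not shown to be constant. Squared differences within groups were 1.15 (control) and 1.26 (knockdown) times sampling noise, and 25.1 to 27.1 times between groups. The alternatives used DESeq2 1.42.0, mgcv 1.9.3 for the length trend, other scalings and filters, and left out libraries. TPM and centred FPKM were added after the data were seen. Genes named from the 8 lists are up to 4 per list with the smallest p and at least 1 FPKM. The members and lists were chosen with earlier results of these data known, so no list gets a test of its own. CDKN2A and H19 were not analysed here.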

Additional observations from a re-analysis of the deposited data

How the results depend on the processing

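Over 14 alternatives RB1 and CDK6 stayed higher and CCND1, CDKN1C and CDKN2C stayed lower, and RB1 passed in all 14. The number of the 10 genes called by counts was 5, and 3 with DESeq2 (2 higher, 1 lower), which called 4441 genes of all against 7319. By FPKM it was 6, and by TPM 3, all higher. DESeq2 left CCND1 at -0.25 (adjusted p = 0.0502) and CCND2 at 0.17 (0.141). With the effective length as an offset (edgeR) CCND2 was at -0.15 (0.0345), CCND3 at 0.06 (0.449) and CDK4 at -0.10 (0.0201). That fit differs from the main count fit in the lengths it takes in. With the length trend removed CCND2 was at 0.12, CCND3 at 0.16, CDK4 at 0.12, CDK6 at 0.10, CDKN1A at -0.01 and CDKN1B at 0.09 (0.169). By log2(FPKM + 1) CCND2 was at -0.19, CCND3 at 0.01, CDK4 at -0.15 and CDKN1C at -0.27, and with FPKM centred CCND2 was at -0.14, CCND3 at 0.06 and CDK4 at -0.10. By TPM CCND1 was at -0.06, CCND2 at 0.02, CCND3 at 0.23, CDK4 at 0.07, CDKN1A at 0.04 and CDKN1B at 0.12. TPM and centred FPKM differ from FPKM in the scaling of each library. The cause of the differences in length and in FPKM sum between the groups was not tested.

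Leaving out each library in turn gave 4 to 6 of the 10 called by counts, 3 to 5 by FPKM and 56 to 61 of the partner genes (68 with all libraries), beside 37.4% to 38.5% of all genes by counts and 28.0% to 29.9% by FPKM, the lone library of a group being assumed to vary like the other group. The 3 by FPKM came without ZBTB16 knockdown replicate 1 and without replicate 2. The log2 ranges were -0.27 to -0.23 for CCND1, 0.13 to 0.19 for CCND2, -0.07 to 0.04 for CCND3, -0.09 to 0.02 for CDKN1B and -0.33 to -0.10 for CDKN2C, and for CDKN1C they were -0.36 without control replicate 1 and -0.17 without control replicate 2. With the replicate number as a block CDKN2C passed (-0.22, adjusted p = 0.0449, edgeR). In that setting 6 of the 10 were called by counts and 5 by FPKM, beside 47.5% and 43.1% of all genes. Deviations of same-numbered libraries from their group means correlated at 3.6e-04 over 15763 genes. Differences within groups were only 1.15 and 1.26 times sampling noise, so this correlation cannot show if same-numbered libraries were paired. Of the partner genes 46 were called with DESeq2. Counts of 90 to 112 limit CDKN1C.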
